A study of Rattus norvegicus with 8 samples.

Results

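The voltage-gated and other ion channel genes on a rat beadchip were examined in thigh muscle of rats fed compound 197. Members were the probes whose gene symbol began with a channel prefix: Kcn for potassium channels, Scn for sodium channels, Cacna, Cacnb and Cacng for calcium channels, Clcn and Ttyh for chloride channels, and Trpc, Trpm, Trpv, Trpml and Hcn for other cation channels. Not every gene with such a prefix was analysed here. A probe also had to be above background, with a detection p-value under 0.05, on at least 4 of the 8 arrays. Of 22523 probes on the array, 142 probes of 137 genes carried such a symbol, and 51 probes of 50 genes were above background on enough arrays to be tested. The tested members were thus chosen by measured values, their detection p-values, and which channels were detected is given below as a description.

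The rats were of the Wistar Han stock, an outbred laboratory line, and 1 array was made from the femoral muscle of each. Control rats (n = 4) ate ordinary laboratory feed, and the treated rats (n = 4) ate feed with compound 197 at 150 ppm for 28 days. Compound 197 is named by the labels as a sulfonyl isoxazoline and is known here by its code alone. The series title speaks of toxicity to muscle mitochondria, and the sources used here do not give age or sex. The muscle was a mixture of cells, so fewer cells of a type and less RNA per cell cannot be told apart.

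Ion channels are membrane proteins that let selected ions cross when voltage, a ligand or a stretch opens them. In a muscle fibre a sodium channel starts the action potential, potassium and chloride channels end it and hold the membrane at rest, and a voltage-sensing calcium channel of the transverse tubule passes the signal to the calcium store. Many of these channels are built from a pore-forming subunit and smaller subunits that set where it sits and how it opens.

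Compound 197 arrays carried more detected probes (9743 to 10498) than control arrays (8310 to 9507), and their lowest raw intensity was lower (51.1 to 55.5 against 59.3 to 61.6). Of the 142 channel probes, 39 to 53 were above background on a control array and 49 to 59 on a compound 197 array. Of 11 muscle fibre markers, 11 were tested, 2 (Myh4 and Tnni2) were higher, and their summed linear intensity was 333279 to 345474 on control and 376114 to 398839 on compound 197 arrays. No leukocyte marker of 6 on the array was tested, since each was above background on too few arrays. Of 3 tested adipocyte markers 1 was higher, Fabp4 (log2 change 0.88, limma adjusted p 0.0099, and 1.48 with median scaling), and Adipoq did not pass (0.78, 0.124). Cidec, the remaining adipocyte marker, went the other way and did not pass (-0.31, 0.243). Of 2 tested smooth muscle and pericyte markers 1, Rgs5, was counted as higher, through treated arrays alone. No marker passed among 5 endothelial, 7 fibroblast, 2 erythroid and 3 satellite cell markers tested in limma, where 1 fibroblast marker (Postn) had an unadjusted p under 0.05. Leaving out 1 rat brought calls for 2 endothelial and 1 satellite cell marker as lower (without control 4) and for 1 fibroblast marker as higher (without control 2 or treated rat 2). Among adipocyte markers, Adipoq was called higher without treated rat 2 and Cidec lower without treated rat 3. Beside these marker counts, 24.2% of all tested probes were lower and 16.3% higher. The part of these cell types in the channel results was not tested.

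Compound 197 muscle had lower signal than control muscle at 11 channel probes and higher signal at 2, while 38 did not pass the test (limma, Benjamini-Hochberg adjusted p under 0.05 over all 9873 tested probes). The falls that kept their direction and passed under quantile, cyclic loess and median scaling of the arrays were Ttyh3, a tweety family member first described as a chloride channel, Kcnj9, a subunit of G-protein-gated potassium channels, and Trpv6, a calcium-selective channel of epithelia. Kcnn3, a calcium-activated potassium channel of small conductance, rose under the same 3 scalings. Among all tested probes 40.5% passed, 24.2% as lower and 16.3% as higher, against 25.5% of the channel probes. After normalization no overlap between the groups was seen at 14 channel probes, where 40% of all tested probes did not overlap.

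The direction of the many smaller falls depended on how the arrays were brought to one scale. The median log2 change of all tested probes was -0.18 with quantile normalization, 0.31 with median scaling and -0.01 with cyclic loess, and that of the 51 channel probes was -0.27, 0.15 and -0.10 in the same order. Tested against the median change of all probes, 5 channel probes were lower and 3 higher, beside 8.53% and 19.7% of all probes. Median scaling left 3 lower and 3 higher, beside 1.91% and 23.2% of all probes, and cyclic loess left 5 lower and 2 higher, beside 8.02% and 19.4%. Among the 32 channel probes above background on all 8 arrays, 11 were lower and 1 higher, beside 30.9% and 12.2% of the probes so detected. With a change of at least 1.5-fold also required, 8 channel probes were lower and 2 higher, beside 9.78% and 13.4% of all probes.

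**Figure D1:**
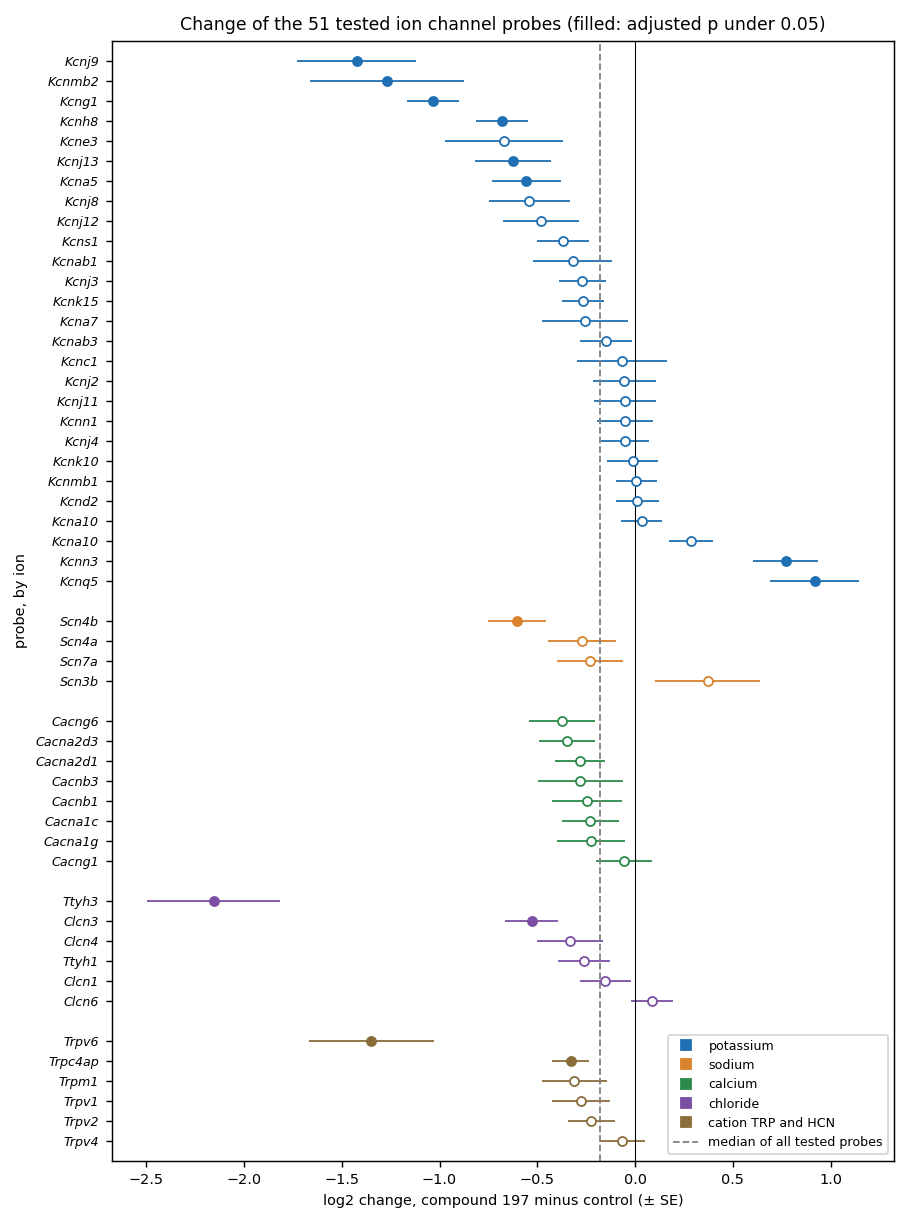
Change of each tested channel probe, as log2 intensity of compound 197 minus control with its standard error (n = 4 rats a group), sorted within each ion. Filled points passed adjusted p under 0.05, and the dashed line is the median change of all tested probes, -0.18. Most open points lie near that line, and Ttyh3 lies lowest at -2.15.

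Ttyh3 had the largest change among the channel probes. Its log2 intensity was 7.99, 8.14, 9.28 and 9.18 in control rats 1 to 4 and 5.98, 6.72, 6.97 and 6.30 in compound 197 rats 1 to 4. Every treated rat was below every control, and controls 3 and 4 were above controls 1 and 2. The means were 8.65 ± 0.68 and 6.49 ± 0.44 (SD, n = 4 each), a fall of 4.45-fold, with a log2 change of -2.15 ± 0.34 (SE) and a limma adjusted p of 0.00129. The deposited intensities before any normalization, 337 to 623.5 in controls and 136.4 to 211 in treated rats, showed the same separation. Relative to the median change the difference was -1.97 (adjusted p 0.00203). The size depended on the background correction: without it the log2 change was -1.47, and with the deposited normalized values -1.60.

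Kcnj9 encodes an inwardly rectifying potassium channel subunit best known in brain and endocrine cells. Its log2 intensity was 7.02, 6.74, 7.77 and 8.05 in controls 1 to 4 and 5.72, 5.81, 6.52 and 5.85 in treated rats 1 to 4. The normalized groups did not overlap, and treated rat 3 was nearest to the controls. Raw intensities overlapped slightly (170.5 to 324.9 in controls, 115.9 to 172.3 in treated rats). The mean fell from 7.40 ± 0.61 to 5.97 ± 0.37 (SD, n = 4 each), a 2.68-fold fall, with a log2 change of -1.42 ± 0.30 (SE, limma adjusted p 0.00605).

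Trpv6 carries calcium into epithelial cells. Its log2 intensity was 7.60, 7.43, 8.90 and 8.50 in controls 1 to 4 and 6.48, 6.94, 7.03 and 6.59 in treated rats 1 to 4. The groups did not overlap, and again controls 3 and 4 were the highest. The mean fell 2.55-fold, from 8.11 ± 0.71 to 6.76 ± 0.27 (SD, n = 4 each), with a log2 change of -1.35 ± 0.32 (SE, limma adjusted p 0.00985).

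Kcnmb2, an auxiliary subunit that makes the large-conductance calcium-activated potassium channel inactivate, was at 6.52, 6.69, 8.54 and 7.54 log2 intensity in controls 1 to 4 and at 5.83, 6.15, 6.28 and 5.95 in treated rats 1 to 4. The groups did not overlap, but the controls spread widely, with control 3 far above controls 1 and 2. The 2.41-fold difference, -1.27 ± 0.40 on the log2 scale (SE), had a limma adjusted p of 0.0311. It did not pass relative to the median change (adjusted p 0.0707), nor on leaving out control 4 (0.0654) or treated rat 1 (0.0761), 2 (0.0584), 3 (0.0521) or 4 (0.0737).

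These 4 probes, the channel probes that fell by more than 1.2 on the log2 scale, all had controls 3 and 4 above controls 1 and 2. The same order of controls was seen at 5 of the 11 lowered channel probes (45.5%, Kcnj13 being the other) and at 20.4% of all lowered probes. It was seen at 13 of 51 tested channel probes (25.5%), at 12.2% of all tested probes and at 173 of the 184 probes of the whole array that fell by more than 1.2 (94%). The pattern was noticed after the values were seen, and nothing in the labels sets those controls apart. Without controls 3 and 4 the log2 changes were -1.59 for Ttyh3 (limma adjusted p 0.00853), -0.997 for Kcnj9 (0.0315), -0.76 for Trpv6 (0.0263) and -0.61 for Kcnmb2 (0.0380). On all arrays but without background correction they were -1.47, -0.80, -0.91 and -0.75 in the same order. The deposited normalized values gave -1.60, -0.94, -0.99 and -0.86. In either of these settings only Ttyh3 fell by more than 1.2. Cdh19, a Schwann cell marker, showed that order of controls too and fell by 1.86 ± 0.42 on the log2 scale (SE, limma adjusted p 0.0079). The 6 tested nerve and Schwann cell markers held 2 that were lower (Cdh19, and Nefm, a neurofilament gene, at -0.54 with an adjusted p of 0.0152 and at 0.03 with median scaling) and summed to a linear intensity of 2194 to 3331 on control and 1072 to 2357 on compound 197 arrays. The other 4 did not pass, with log2 changes of -0.66 for Pmp22, 0.74 for S100b, -0.11 for Mbp and -0.03 for Stmn2. S100b was called higher without treated rat 2. Nefl, Snap25, Sox10, Syt1 and Tubb3 were above background on too few arrays to be tested, and the part of nerve in the channel falls was not tested.

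**Figure D2:**
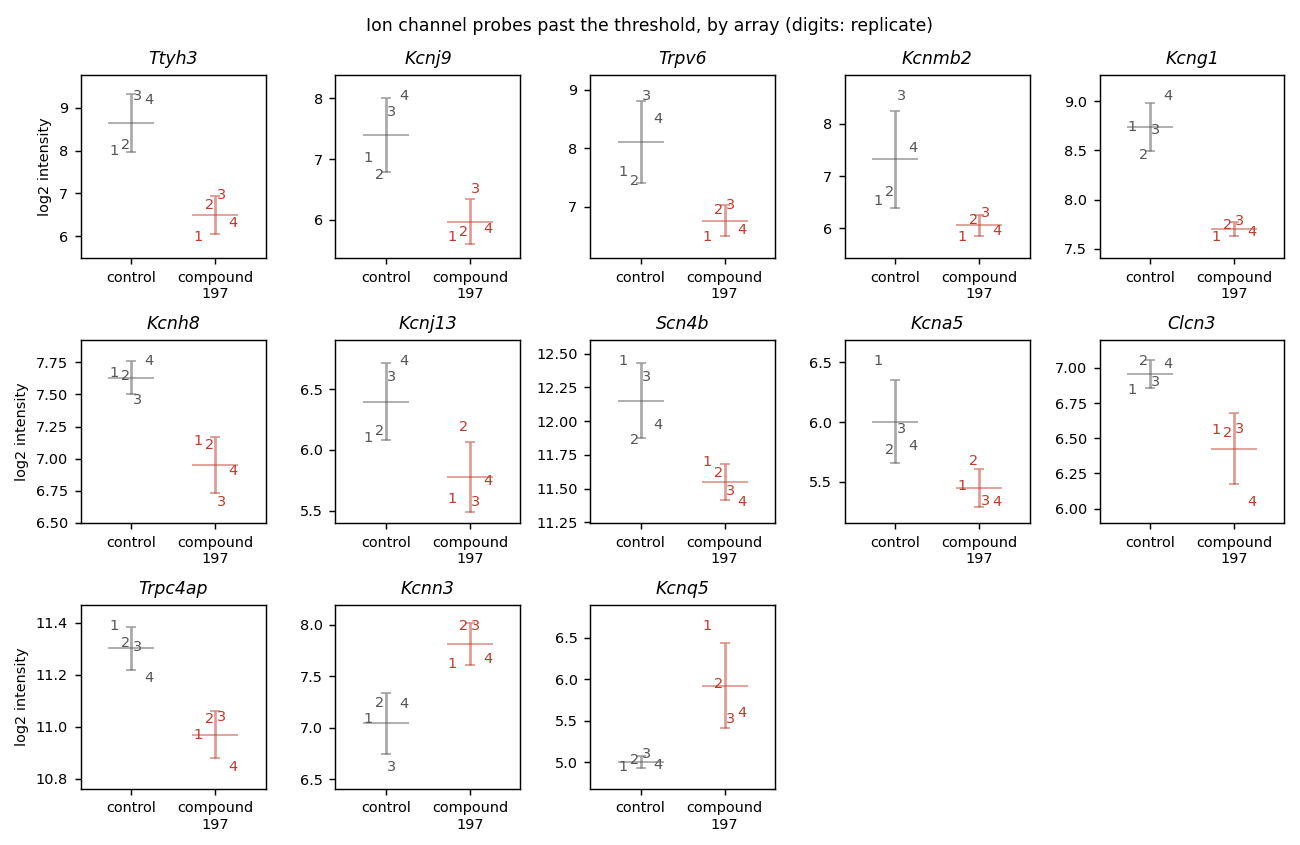
Log2 intensity of the 13 channel probes past the threshold, each digit being 1 rat at its replicate number, with the group mean (line) and SD (bar), n = 4 a group. Controls 3 and 4 stand above controls 1 and 2 for Ttyh3, Kcnj9, Trpv6, Kcnmb2 and Kcnj13, and the normalized groups overlap only for Kcnj13.

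Printed here are the 250 bases before the annotated start of the channel genes that fell by more than 1.2 on the log2 scale. Those of Kcnn3, which rose, are set beside them. The order of controls that the fallen genes share was seen at 94% of all probes that fell so far. It is thus not particular to them, and shared regulation was not tested. The sequences are from RefSeq (GRCr8), 5′ to 3′ on the strand of the gene, and capitals mark any of 5 motifs searched on both strands: the E-box CANNTG of muscle regulatory factors, the MEF2 box (CTA, any 4 bases, then TAG), the GC box GGGCGG, the TATA box TATAAA and the core of cyclic AMP response elements, TGACGT. Ttyh3 lies at chr12:19110723-19110972 (plus strand), Kcnj9 at chr13:87320294-87320543 (minus), Trpv6 at chr4:71489668-71489917 (minus), Kcnmb2 at chr2:116599049-116599298 (plus) and Kcnn3 at chr2:177234090-177234339 (plus).
Ttyh3: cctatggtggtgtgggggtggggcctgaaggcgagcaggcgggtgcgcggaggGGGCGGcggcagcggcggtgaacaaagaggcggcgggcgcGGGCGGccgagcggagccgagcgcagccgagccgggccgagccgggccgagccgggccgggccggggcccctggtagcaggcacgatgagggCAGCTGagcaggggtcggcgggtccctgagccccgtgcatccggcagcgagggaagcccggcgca
Kcnj9: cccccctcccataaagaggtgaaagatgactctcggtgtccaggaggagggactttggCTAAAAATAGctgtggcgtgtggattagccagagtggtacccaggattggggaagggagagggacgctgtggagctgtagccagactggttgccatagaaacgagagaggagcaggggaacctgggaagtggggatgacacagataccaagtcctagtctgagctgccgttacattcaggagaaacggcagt
Trpv6: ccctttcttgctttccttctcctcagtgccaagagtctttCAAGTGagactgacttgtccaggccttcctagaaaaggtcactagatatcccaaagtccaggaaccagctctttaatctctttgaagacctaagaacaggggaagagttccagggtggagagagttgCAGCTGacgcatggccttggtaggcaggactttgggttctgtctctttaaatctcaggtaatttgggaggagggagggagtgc
Kcnmb2: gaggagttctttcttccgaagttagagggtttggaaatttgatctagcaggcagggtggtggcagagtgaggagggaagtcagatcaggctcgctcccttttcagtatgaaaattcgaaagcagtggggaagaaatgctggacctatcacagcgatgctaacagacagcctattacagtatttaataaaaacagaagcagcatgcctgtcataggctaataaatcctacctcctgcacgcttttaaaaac
Kcnn3: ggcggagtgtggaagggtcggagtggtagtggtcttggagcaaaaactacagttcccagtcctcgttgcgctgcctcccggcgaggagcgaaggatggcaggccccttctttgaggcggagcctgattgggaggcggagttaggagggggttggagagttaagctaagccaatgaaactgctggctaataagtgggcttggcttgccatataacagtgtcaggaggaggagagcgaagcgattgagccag

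The Ttyh3 window held GC boxes and an E-box, Kcnj9 held a MEF2 box, Trpv6 held E-boxes, and the windows of Kcnmb2 and Kcnn3 held none of the 5 motifs. RefSeq windows matched 38 of the 50 tested genes. An E-box stood in 28 of these 38 (73.7%) and in 65.2% of all 27457 promoters, and a MEF2 box in 2 of 38 (5.26%) and 3.43% of all. A GC box stood in 16 of 38 (42.1%) and 32.4% of all, a TATA box in 2 of 38 (5.26%) and 13.1% of all, and TGACGT in 2 of 38 (5.26%) and 7.25% of all. Of the 10 windows of lowered genes, 7 held an E-box, 1 a MEF2 box, 3 a GC box, 1 a TATA box and 2 TGACGT (Clcn3 and Kcnj13). The median GC content was 61.4% in the channel windows and 52% in all. A match describes these letters, not a bound site.

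Potassium channels made up 27 of the 51 tested probes, out of 86 with a Kcn symbol. Of the 27, 2 were higher (Kcnn3 and Kcnq5), 6 were lower and 19 did not pass. The share that passed was 29.6%, beside 40.5% of all tested probes. Their median log2 change was -0.26 with quantile normalization, 0.13 with median scaling and -0.06 with cyclic loess.

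Kcnn3, whose channel is known to reappear in denervated muscle, was at 7.09, 7.24, 6.61 and 7.23 log2 intensity in controls 1 to 4 and at 7.62, 7.99, 7.99 and 7.67 in treated rats 1 to 4. Every treated rat was above every control. The mean rose 1.71-fold, from 7.04 ± 0.29 to 7.81 ± 0.20 (SD, n = 4 each), with a log2 change of 0.77 ± 0.17 (SE, limma adjusted p 0.00642). The change was 0.95 relative to the median change, 1.41 with median scaling and 0.98 with cyclic loess. Of 7 tested markers of denervated or immature muscle, which include Kcnn3, 2 rose and 5 did not pass, with a median log2 change of -0.08. Their summed linear intensity was 1033 to 1458 on control and 1320 to 1867 on compound 197 arrays. Gadd45a, a growth arrest gene, was the other that rose (1.04 ± 0.19, SE, limma adjusted p 0.0025). It was the brightest of the 7, at mean log2 intensities of 8.54 in controls and 9.58 in treated rats, and so weighs most in the sum. Ncam1, a surface protein of denervated fibres, was above background on too few arrays to be tested. Chrna1, the acetylcholine receptor alpha subunit, had a change of -0.82 (limma adjusted p 0.124). The remaining changes were 0.54 for Myog, -0.15 for Chrng, -0.43 for Myh3 and -0.08 for Runx1. Myog was called higher without control 1.

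Kcnq5, of the family that carries the slow M-type current, was above background on 0 control and 4 treated arrays. It was at 4.94, 5.03, 5.10 and 4.97 log2 intensity in controls 1 to 4 and at 6.64, 5.95, 5.52 and 5.60 in treated rats 1 to 4. Treated rat 1 was the highest. Against the lowest signal that counted as above background, it was at least 1.32-fold higher in treated rats (limma adjusted p 0.0117). Since it was tested only through its treated arrays, its direction was fixed by the way it was chosen.

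Kcng1, a subunit that forms no channel alone but alters partner potassium channels, was at 8.74, 8.45, 8.71 and 9.06 log2 intensity in controls 1 to 4 and at 7.62, 7.75, 7.78 and 7.67 in treated rats 1 to 4. Both groups were tight and far apart. The 2.05-fold fall, -1.04 ± 0.13 on the log2 scale (SE), had a limma adjusted p of 0.000353, the smallest among the channel probes. Relative to the median change it also passed (0.00109), but with median scaling the change was -0.45 (0.102).

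Kcnh8, a voltage-gated channel of the ether-a-go-go group, was at 7.67, 7.64, 7.45 and 7.76 log2 intensity in controls 1 to 4 and at 7.13, 7.10, 6.66 and 6.90 in treated rats 1 to 4. All treated rats were below all controls after normalization, but the raw intensities overlapped (210.4 to 284.3 in controls, 182.5 to 231.2 in treated rats). The log2 change was -0.68 ± 0.13 (SE, limma adjusted p 0.00376), it passed relative to the median change (0.0192), and under median scaling it was -0.02 (0.957). A further Kcnh8 probe was at background on all 8 arrays.

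Kcna5, a delayed rectifier of heart and vessels, was at 6.51, 5.76, 5.94 and 5.80 log2 intensity in controls 1 to 4 and at 5.46, 5.67, 5.34 and 5.33 in treated rats 1 to 4. The groups lay close together without overlap. The change of -0.56 ± 0.18 (SE, limma adjusted p 0.0329) was lost relative to the median change (0.148) and without control 3 (0.0516) or treated rat 1 (0.0715), 3 (0.0809) or 4 (0.0899).

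Kcnj13, an inward rectifier of transporting epithelia, was at 6.10, 6.15, 6.60 and 6.73 log2 intensity in controls 1 to 4 and at 5.59, 6.19, 5.57 and 5.75 in treated rats 1 to 4. Treated rat 2 lay within the controls. The change of -0.62 ± 0.19 (SE, limma adjusted p 0.0302) was lost relative to the median change (0.122) and without control 3 (0.0694) or 4 (0.0688) or treated rat 1 (0.0794), 3 (0.0795) or 4 (0.0707).

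Most potassium channels known from muscle fibres did not pass. Kcnj11, the pore of the ATP-sensitive channel of muscle, was at 8.89 to 9.41 log2 intensity in controls and 8.90 to 9.43 in treated rats, a change of -0.05 ± 0.16 (SE, limma adjusted p 0.811). The inward rectifier Kcnj12 ranged from 9.49 to 10.32 in controls and from 9.08 to 9.66 in treated rats (change -0.48 ± 0.19, SE, adjusted p 0.0770). It passed without control 3 (0.0271). Kcnj8, a pore of the ATP-sensitive channel of vessels, had a change of -0.54 ± 0.21 (SE, adjusted p 0.0653) and passed without treated rat 1 (0.0303).

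Kcnj2, the main resting inward rectifier, was above background on 6 of 8 arrays, with a change of -0.05 (adjusted p 0.806). Kcna7, a muscle delayed rectifier, ranged from 6.42 to 7.39 in controls and from 6.38 to 6.79 in treated rats, so that the groups overlapped (adjusted p 0.372). Kcne3, an accessory subunit of muscle potassium channels, had a change of -0.67 ± 0.30 (SE, adjusted p 0.106), with control 4 at 7.09 and the other controls at 5.48 to 5.96. It passed without control 2 (0.0448). The voltage-gated Kcnc1 and Kcnd2 had changes of -0.07 and 0.01.

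Kcna10, a channel gated by voltage and cyclic nucleotides, was the only gene with 2 tested probes. One had a change of 0.29 ± 0.11 (SE, limma adjusted p 0.0723) and the other 0.03 ± 0.10 (0.816). The first passed as higher against the median change (0.0135), with median scaling (0.033) and without treated rat 1 (0.0481), and each probe was above background on 2 control and 4 treated arrays. Kcns1, a modifier of other potassium channels, did not overlap between groups but had an adjusted p of 0.051.

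Of 11 probes with an Scn symbol, 4 were tested, 1 was lower and 3 did not pass. The share that passed was 25%, beside 40.5% of all tested probes. The median log2 change of the 4 was -0.25 with quantile normalization, 0.24 with median scaling and -0.10 with cyclic loess. Scn4b, an auxiliary subunit linked to resurgent sodium current, was at 12.45, 11.86, 12.33 and 11.97 log2 intensity in controls 1 to 4 and at 11.70, 11.62, 11.48 and 11.40 in treated rats 1 to 4. The normalized groups did not overlap, though control 2 and treated rat 1 were close, and the deposited raw intensities did overlap (3693 to 6162 in controls, 3004 to 3808 in treated rats). The mean went from 12.15 ± 0.28 to 11.55 ± 0.13 (SD, n = 4 each), a log2 change of -0.60 ± 0.15 (SE, limma adjusted p 0.0119) that became -0.42 relative to the median change (0.0640) and, under median scaling, 0.000531.

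Scn4a, the pore of the muscle sodium channel, was at 8.45, 8.90, 8.33 and 8.60 log2 intensity in controls 1 to 4 and at 8.49, 8.50, 8.31 and 7.89 in treated rats 1 to 4. The groups overlapped, with a change of -0.27 ± 0.17 (SE, limma adjusted p 0.234). Scn3b, a further auxiliary subunit, had a change of 0.37 ± 0.27 (SE, adjusted p 0.296), and Scn7a, a sodium-sensing relative, -0.23 ± 0.17 (SE, 0.304).

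Of 23 calcium channel probes with a matching symbol, 8 were tested and 0 passed in limma, beside 40.5% of all tested probes. Of the 8, 1, Cacna2d3, had an unadjusted p under 0.05. Over the 23 other settings at most 1 calcium channel probe passed (without control 3, without controls 3 and 4, or without the detection filter), and the probes concerned were Cacna2d3 and Cacna1h. The median log2 change of the 8 was -0.26 with quantile normalization, 0.27 with median scaling and -0.08 with cyclic loess.

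Subunits of the muscle calcium channel of the transverse tubule were among the 8. Cacna2d1, its alpha-2-delta subunit, was at 13.63, 13.83, 13.61 and 14.05 log2 intensity in controls 1 to 4 and at 13.46, 13.63, 13.54 and 13.35 in treated rats 1 to 4. Treated rat 2 reached the level of controls 1 and 3, and the change was -0.28 ± 0.13 (SE, limma adjusted p 0.104). Cacng1, its gamma subunit, was at 12.75, 12.97, 12.34 and 12.49 in controls 1 to 4 and at 12.69, 12.57, 12.54 and 12.53 in treated rats 1 to 4, within the range of the controls (-0.06 ± 0.14, SE, 0.769). Cacnb1, its beta subunit, had a change of -0.25 ± 0.18 (SE, 0.299), and Cacng6, a related gamma subunit, -0.37 ± 0.17 (SE, 0.108).

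Of 9 chloride channel probes with a matching symbol, 6 were tested, 2 were lower (Ttyh3 and Clcn3) and 4 did not pass. Of the tested chloride channel probes 33.3% passed, beside 40.5% of all tested probes. Chloride channel medians follow. Their median log2 change was -0.30 with quantile normalization, 0.14 with median scaling and -0.15 with cyclic loess. Clcn3, a chloride-proton exchanger of endosomes, was at 6.85, 7.05, 6.90 and 7.03 log2 intensity in controls 1 to 4 and at 6.56, 6.54, 6.56 and 6.05 in treated rats 1 to 4. The normalized groups did not overlap, and treated rat 4 was apart from the rest. Raw intensities overlapped (167.2 to 197.4 in controls, 144.8 to 177.3 in treated rats). The change of -0.53 ± 0.14 (SE, limma adjusted p 0.0145) became -0.35 relative to the median change (0.0906) and, under median scaling, 0.14, so its direction depended on the scaling.

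Clcn1, the chloride channel that keeps the resting muscle membrane quiet, was dim on this array. Its log2 intensity was 5.42 to 5.87 in controls, where 3 of 4 arrays were above background, and 5.32 to 5.62 in treated rats, a change of -0.15 ± 0.13 (SE, limma adjusted p 0.370). Clcn4, an exchanger related to Clcn3, had a change of -0.33 ± 0.17 (SE, 0.142) and passed without control 2 (0.0312). Ttyh1, a relative of Ttyh3, had a change of -0.26 ± 0.13 (SE, 0.142), and Clcn6, an exchanger of late endosomes, 0.09 (0.537).

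Of 13 probes with a Trp or Hcn symbol, 6 were tested, 2 were lower (Trpv6 and Trpc4ap) and 4 did not pass. Beside 40.5% of all tested probes, 33.3% of these 6 passed. Their median log2 change was -0.29 with quantile normalization, 0.13 with median scaling and -0.11 with cyclic loess. Trpc4ap was matched through its prefix, but its product is a protein associated with a channel and not a channel. It was at 11.39, 11.32, 11.31 and 11.19 log2 intensity in controls 1 to 4 and at 10.97, 11.03, 11.04 and 10.84 in treated rats 1 to 4. The normalized groups did not overlap, but the raw intensities of treated rats (2108 to 2303) lay within those of controls (1861 to 2936). The change of -0.33 ± 0.094 (SE, limma adjusted p 0.0219) was -0.15 relative to the median change (0.279) and, under median scaling, 0.28. It was lost without control 1 (0.0506) or treated rat 1 (0.0520) or 4 (0.0631). Trpv1, Trpv2, Trpv4 and Trpm1, sensors of heat, swelling or light-linked signals in other tissues, had changes of -0.28, -0.22, -0.07 and -0.31 and did not pass.

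**Figure D3:**
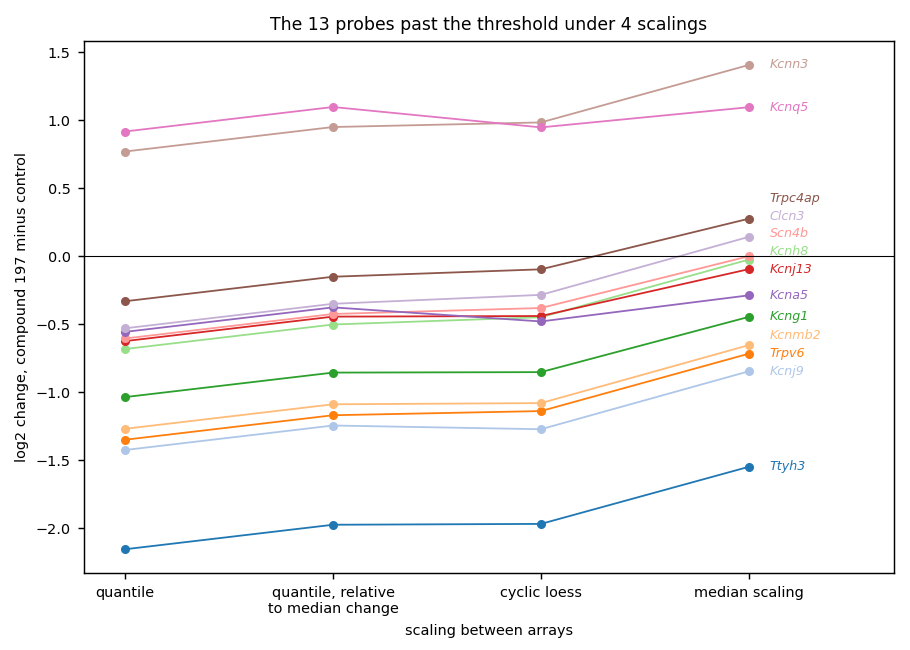
Log2 change of the 13 channel probes past the threshold with quantile normalization, relative to the median change of all tested probes, with cyclic loess and with median scaling, each line being 1 probe. Trpc4ap, Clcn3 and Scn4b cross 0 or reach it with median scaling, at 0.28, 0.14 and 0.000531, while Ttyh3, Kcnj9 and Trpv6 stay well below it and Kcnn3 above.

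Channel probes passed in every range of signal, but most of those that passed lay between 6 and 8 on the log2 scale. Of 28 channel probes under 6 on the log2 scale, where 10.5% of all probes were lower, 1 was higher and 1 lower, and 15.8% of all probes were higher. Of 8 between 6 and 7, where 25.4% of all were lower, 4 were lower, and of 6 between 7 and 8, where 29.4% were lower, 3 were lower and 1 was higher, and 16.8% of all were higher. Of 5 between 8 and 10, where 28.7% were lower, 1 was lower, and of 4 at 10 or more, where 31.5% were lower, 2 were lower. The part of signal level in the number of passing channel probes was not tested.

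**Figure D4:**
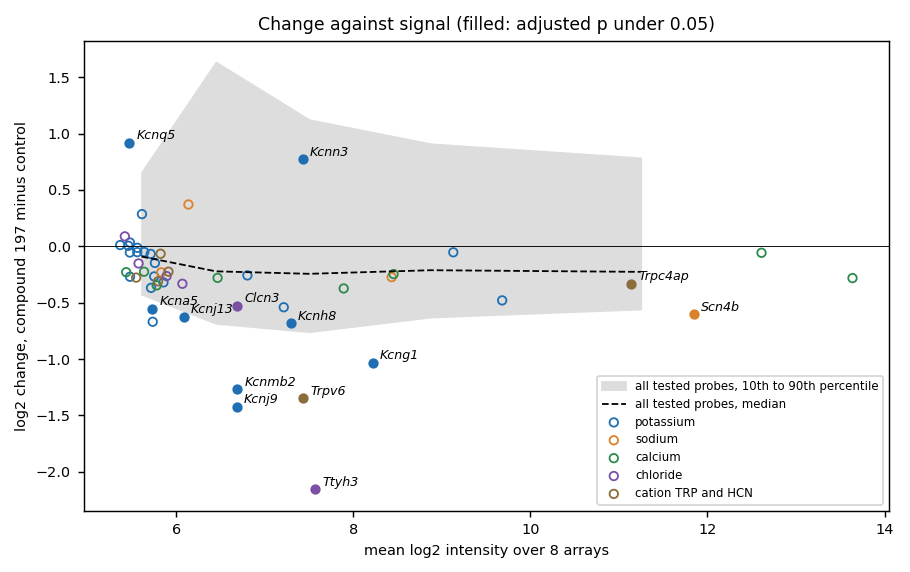
Log2 change of each tested channel probe against its mean log2 intensity over the 8 arrays, filled where adjusted p was under 0.05. The grey band runs from the 10th to the 90th percentile of all tested probes and the dashed line is their median. Ttyh3, Kcnj9, Trpv6, Kcnmb2 and Kcng1 lie well below the band, Kcnj13, Kcna5 and Kcne3 lie just below it, and Scn4b lies beyond its right end.

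Of the 142 channel probes with a matching symbol, 70 were above background on 0 arrays and 32 on all 8. Just outside the limit were 5 probes above background on 3 arrays (Clcn7, Kcnc2, Kcne4, Kcnj14 and Kcnq1). Just inside were 5 on 4 arrays (Cacna1c, Clcn6, Kcnd2, Kcnj3 and Kcnq5), with control means of 5.01 to 5.61 and compound 197 means of 5.32 to 5.93 log2 intensity. Among channels known from muscle, Kcnma1, Kcna3, Cacna1h and Clcn2 were not tested because too few arrays were above background, which does not show that they are absent.

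Genes that work with the channels were read from lists drawn up by function. Beside the counts of each list, 24.2% of all tested probes were lower and 16.3% higher. Of 16 tested genes of muscle fibre excitability, 2 rose (Abcc9 and Kcnn3), 1 was lower (Clcn3, whose direction turned with median scaling) and 13 did not pass, with a median log2 change of -0.20 beside -0.18 for all probes. Without control 2, 3 were lower, and without control 3, 2 were lower. Abcc9, a sulfonylurea receptor that pairs with Kcnj11 or Kcnj8 in ATP-sensitive channels, rose 6.05-fold. Its mean went from 8.33 ± 0.18 to 10.92 ± 0.16 log2 intensity (SD, n = 4 each). Its log2 change was 2.60 ± 0.13 (SE, limma adjusted p 4.96e-07), and 3.18 with median scaling. Neither pore gene passed, as described above. Abcc8, a further sulfonylurea receptor listed with the potassium channel partners, did not pass (0.23 ± 0.35, SE, limma adjusted p 0.627).

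Of 10 tested potassium channel partners, 1 rose (Abcc9) and 3 were lower, with a median of -0.24, and relative to the median change 1 was higher and none of the other 9 passed. Lrrc38 and Lrrc52, which ease the opening of large-conductance potassium channels, had changes of -0.82 ± 0.22 (SE, limma adjusted p 0.0177) and -0.52 (0.0159). Lrrc52 was above background on 4 control arrays and 1 treated array, so it passed the filter through its controls and its size rests on treated signal near background. Lrrc38 was lost without treated rat 4 (0.0551). The number lower was 2 without control 1 or treated rat 1, 2 or 3, 4 without control 2, and 1 without treated rat 4.

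Of 6 tested sodium channel partners, 1 was higher and 1 lower, with a median of -0.01. Fgf13, a fibroblast growth factor relative that binds sodium channels inside the cell, was above background on 0 control and 4 treated arrays and was at least 3.04-fold higher in treated rats (limma adjusted p 2.09e-07). Like Kcnq5, it was tested only through its treated arrays, so its direction was fixed by the filter. Rangrf, which helps sodium channels reach the membrane, had a change of -0.63 ± 0.18 (SE, limma adjusted p 0.0234) and of -0.03 with median scaling. It did not pass without control 3 or treated rat 3 or 4, at up to 0.0622. Without control 1 the lower count was 2, and without control 2 the higher count was 2.

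Of 6 tested calcium channel partners, 1 was lower, Stac3, which couples the tubule calcium channel to the calcium store. It went from 13.57 ± 0.054 to 13.05 ± 0.14 log2 intensity (SD, n = 4 each), a change of -0.52 ± 0.10 (SE, limma adjusted p 0.00388) that passed relative to the median change (0.0333) and was 0.09 with median scaling. The list's median was 0.18, and without control 2, 3 or 4 a gene of the list was also higher (1 in each case). With median scaling 3 were higher, Rrad (1.08), Jph1 (1.07) and Jph2 (1.02), and 0 lower, beside 23.2% and 1.91% of all probes. Relative to the median change Jph1 passed as higher (limma adjusted p 0.0219). The direction of the list thus depended on the scaling.

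Of 22 tested genes of other channel families, 3 were higher and 5 lower, with a median of -0.09, and with median scaling 6 were higher and none of the 16 others passed. Clns1a, a chloride-current and splicing-complex protein, rose 5.41-fold (2.44 ± 0.18 on the log2 scale, SE, limma adjusted p 7.28e-06). Tmem175, a potassium channel of lysosomes, had a change of -0.93 ± 0.14 (SE, 0.000917) and of -0.29 with median scaling (0.471). Orai3, a store-operated calcium channel, was counted as higher (0.59 ± 0.12, SE, 0.00501) but was above background on 1 control and 4 treated arrays, so it passed the filter through its treated arrays and its size rests on control signal near background. The lower count was 3 without control 1 or 3 or without treated rat 1 or 3, and 2 without treated rat 4. The higher count was 2 without control 1, 3 or 4.

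Of 15 tested genes of the sodium-potassium pump and ion exchangers, 1 was higher and 3 lower, with a median of -0.41. Fxyd1, the small protein that restrains the sodium-potassium pump in muscle, rose 3.10-fold (1.63 ± 0.19 on the log2 scale, SE, limma adjusted p 0.000154). Slc24a4, a calcium exchanger driven by sodium and potassium, fell by 2.11 ± 0.31 on the log2 scale (SE, 0.000908), with controls 3 and 4 above controls 1 and 2. Atp1b4, a muscle protein of the pump's beta family, had a change of -0.89 ± 0.18 (SE, 0.00517) and of -0.27 with median scaling. Atp1b1, of the same family, had a change of -0.83 ± 0.62 (SE, limma adjusted p 0.316), with control 2 at 9.08 and the other controls at 11.55 to 12.28. On leaving out 1 rat it passed only without control 2. The higher count was 2 without treated rat 1 or 3, and the lower count was 4 without control 2 or treated rat 3.

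**Figure D5:**
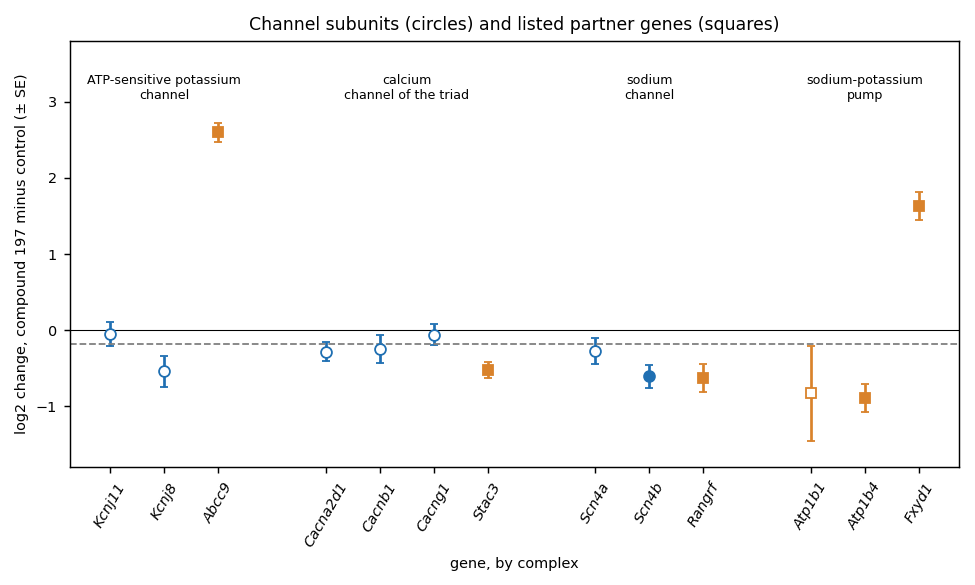
Log2 change (compound 197 minus control, with its standard error, n = 4 a group) of channel subunits (circles) and of listed partner genes (squares) by complex, filled where adjusted p was under 0.05; the dashed line is the median change of all tested probes. Abcc9 lies at 2.60 while the pore genes Kcnj11 and Kcnj8 lie at -0.05 and -0.54, and Fxyd1 lies at 1.63.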

How the data were processed

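The authors deposited a table of raw, non-normalized intensity values and one of normalized intensity values from 1-colour Illumina rat beadchips, and a detection p-value for every value, per the file headers. The sources used here do not name the normalization. From the raw intensities, limma's neqc (limma 3.58.1, R 4.3.3) corrected background through the detection p-values (offset 16), normalized by quantiles and took log2. Probes with detection p under 0.05 on at least 4 of 8 arrays (9873) were fitted with lmFit and eBayes, 4 control against 4 treated rats, with Benjamini-Hochberg adjustment over all of them. The number of arrays limits the precision.

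Probes were named from the platform annotation (13793 of 22523 with 1 symbol, the others unlisted), with symbols updated through RefSeq. Up to 8 passing probes and 3 bright others per ion were named, with every muscle excitability member and up to 3 passing genes of each other list. The members and gene lists were chosen with earlier results of these data known. The test was tried on simulated data. The labels do not say whether replicate numbers pair the rats, and the main fit did not pair them. Correlations of same-numbered deviations were -0.04, -0.09, -0.13 and -0.09, and those of differently numbered rats ran from -0.30 to 0.37. Such correlations cannot show that the rats were unpaired. The sources used here name no slide or scan.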

Additional observations from a re-analysis of the deposited data

Results flagged for a closer look

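Within a group of 4 rats, 1 rat stood far from the other 3 at 5 named channel probes, out of 70 such groups examined; with a 5% limit some such rats appear by chance. For Clcn3 treated rat 4 was at 6.05 log2 intensity and the others at 6.53 to 6.56. For Kcnj9 treated rat 3 was at 6.52 and the others at 5.72 to 5.85. For Kcna7 treated rat 4 was at 6.38 and the others at 6.75 to 6.79, and for Kcnc1 treated rat 2 was at 6.21 and the others at 5.47 to 5.53. For Clcn4 control 2 was at 5.83 and the others at 6.34 to 6.40.

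Outside the tested probes, 8 channel probes were above background on at least 1 compound 197 array and on no control array: Trpc6, Kcnd1, Kcnh1, Kcnk2, Kcnmb4, Kcnn4, Kcnq1 and Kcns3. The reverse was seen for 6. More probes of the whole array were above background on compound 197 arrays (9743 to 10498 against 8310 to 9507), and the part of this in the 8 was not tested.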

How the results depend on the processing

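The count of channel probes past the threshold was 13, and it was 6 with median scaling, 7 with cyclic loess and 8 relative to the median change, where the lower count of 11 became 3, 5 and 5. Leaving out 1 rat gave 9 to 18 in all, 7 to 16 lower and 2 to 3 higher, with 7 lower without compound 197 rat 4. The higher count of 2 became 1 with detection on all 8 arrays, with detection on 2 arrays of each group, with a detection p under 0.01 and without controls 3 and 4, since Kcnq5 was then not tested or not past the threshold. Over all probes, 3999 passed, 2477 with median scaling, 2285 when a 1.5-fold change was also required, and 3138 to 3891 without 1 rat. With the replicate number as a block, 10 channel probes passed, 8 of them lower, and 3242 of all probes. Whether the numbers pair the rats is not stated in the labels. Among the 13 probes past the threshold, changes that turned with median scaling were Trpc4ap (0.28), Clcn3 (0.14) and Scn4b (0.000531). Many channel probes that did not pass also turned, such as Scn4a (-0.27 to 0.31) and Cacna2d1 (-0.28 to 0.32). Over 35 named channel probes and 780 alternative values, 726 kept their side of the threshold, 44 lost the call, 7 gained it and 3 turned. Direction was followed only for probes past the threshold, so the 726 include changes of sign at other probes. The cause was not tested. The omission of controls 3 and 4 together and the test against the median change were chosen after seeing the data. How far signal near background limits the dim probes was not tested.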
